A study of Drosophila melanogaster with 2 samples.

Results

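The 6 genes described here, zld, Trl, Clamp, grh, lola and psq, encode DNA-binding factors that act on chromatin in the early embryo, and they were taken by symbol from 13968 protein-coding genes. Binding of Zelda, which zld (vielfaltig, vfl) encodes, was mapped by chromatin immunoprecipitation and sequencing in whole Drosophila melanogaster embryos of mixed sex, aged 0 to 24 hours. The embryos came from 1 transgenic line that stably expresses Zelda with GFP at its C terminus, and the description of the samples gives an antibody against GFP, although their antibody field reads vfl. There was 1 group, with 2 biological replicates numbered 2 and 3, and no contrast between groups, so the data answer where the tagged protein was found at these genes and how closely the replicates matched. The promoter of the tagged gene is not given in the sources used here, and neither is the number of copies of zld in the line. The embryos were not separated by age, so a summit cannot be placed at a stage or in a tissue.

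Pioneer factors bind their sites in closed chromatin and make the DNA accessible to other factors. Zelda does so for the first genes transcribed by the zygote, and CAGGTAG is its textbook site. The GAGA factor, encoded by Trl, and Clamp both bind GA repeats, Grainyhead, encoded by grh, opens enhancers of epithelial genes, and Lola and Pipsqueak, encoded by lola and psq, are BTB domain proteins, as is GAGA factor.

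The files list peaks on the dm6 build, each with a summit and a signal value given by the authors. A relaxed list from both replicates together (the pooled list) and a relaxed list from each replicate hold 30000 peaks each. A list thresholded for reproducibility holds 2876 peaks, which are the 2876 strongest of the pooled list, with signals from 61.8 to 1231. Rank 1 is the strongest peak of a list. Ranks can be set side by side between lists of the same length, while signals of different lists are on scales whose relation is not given. Read depth is unknown, because the lists hold no read counts.

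Thresholded summits lay close to a start at 5 of the 6 genes. Within the genes extended by 5 kb to each side there were 21 thresholded summits, 7 at lola, 5 at Trl, 5 at psq, 2 at zld, 2 at grh and 0 at Clamp. Within 1 kb of an annotated start of their own, zld, Trl, grh, lola and psq had a thresholded summit and Clamp had none, where 19.7% of all protein-coding genes, and 25.7% of those of at least 30 kb, had one. The strongest such summit had a median signal of 109 over these 5 genes, with a range of 70.3 to 199, against a median of 96.1 over the 2750 protein-coding genes that had one. With 1 group no test between groups was possible, and none was made over genes that were chosen by name.

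Set beside genes of similar length, 3 of the 6 genes, Trl, lola and psq, lay above the 95th percentile of their length class. Over all protein-coding genes 40.7% had at least 1 thresholded summit in the gene extended by 5 kb, 15.2% had at least 2, 0.473% had at least 5 and 0.115% had at least 7. Among the 670 genes of at least 30 kb, to which grh, lola and psq belong, these shares were 50.6%, 26.4%, 3.73% and 1.49%. Trl, with 13.1 kb, had 5 summits, where the 95th percentile of the 1315 genes of 10 to 30 kb was 3. The same percentile was 3 for the 435 genes of 30 to 60 kb, of which psq had 5 summits and grh 2, and 5 for the 234 longer genes, of which lola had 7. These counts take every summit in the extended gene, whatever its nearest start. For lola a start of its own was the nearest for only 4 of the 7, and no count by nearest start is given for the classes. Per 10 kb of extended gene Trl had 2.16 thresholded summits, lola 0.98, zld 0.738, psq 0.721 and grh 0.387. Over the 6 extended genes together the density was 0.82 per 10 kb, against 0.209 over the chromosome arms, and that of pooled relaxed summits was 5.19 against 2.18. Of the 133 pooled summits at the 6 genes 21 were thresholded, where 9.59% of all pooled summits were. The arms include sequence far from any gene, so the densities also set genes against their surroundings.

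**Figure D1:**
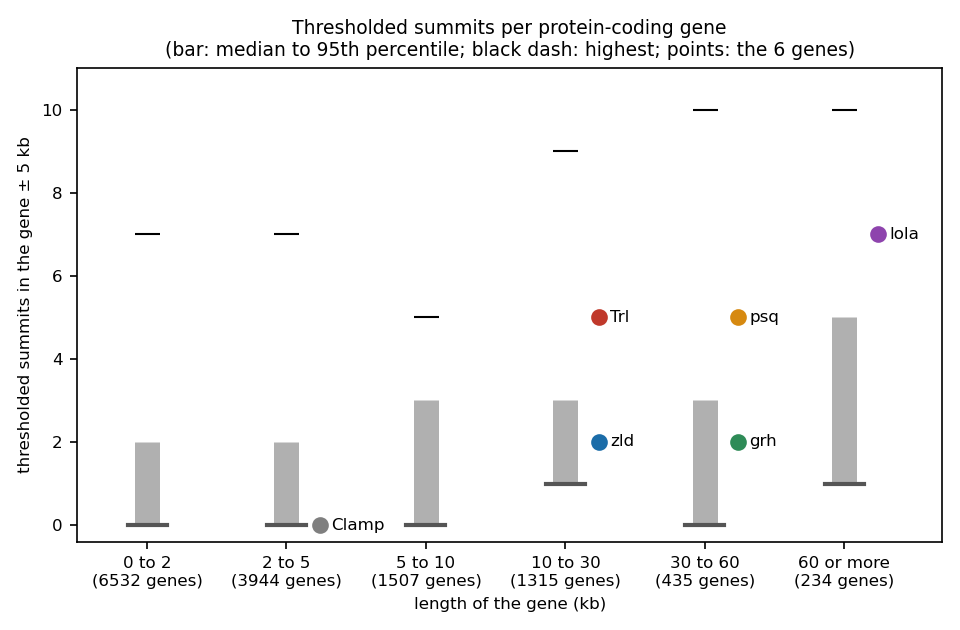
Thresholded summits in each protein-coding gene extended by 5 kb (vertical axis, number of summits) by length of the gene (horizontal axis, kb). Grey bars run from the median to the 95th percentile of each class, black dashes mark its highest gene and coloured points are the 6 genes. Trl and psq with 5 summits and lola with 7 lie above the bar of their class, zld and grh with 2 lie inside it, and Clamp has 0.

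These summits stood both at starts and inside the genes. Of the 21, 10 lay within 500 bp of any protein-coding start, where 64.5% of all thresholded summits did. For 7 of these 10 the start was one of the gene itself, and for the other 3 it was one of CG12702, Pef or pre-lola-G. By annotation, 14 fell in introns, 3 in 5′ UTRs, 4 between genes, and 0 in coding exons or 3′ UTRs. Of the 133 pooled relaxed summits in the same stretches, 81 fell in introns, 21 between genes, 13 in 5′ UTRs, 13 in coding exons and 5 in 3′ UTRs. No share over all summits is given beside these counts by place, so they describe these stretches only. A start of the gene itself was the nearest protein-coding start for 17 of the 21 thresholded summits, and the others stood nearer to starts of CG12702, Pef, whd and pre-lola-G.

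**Figure D2:**
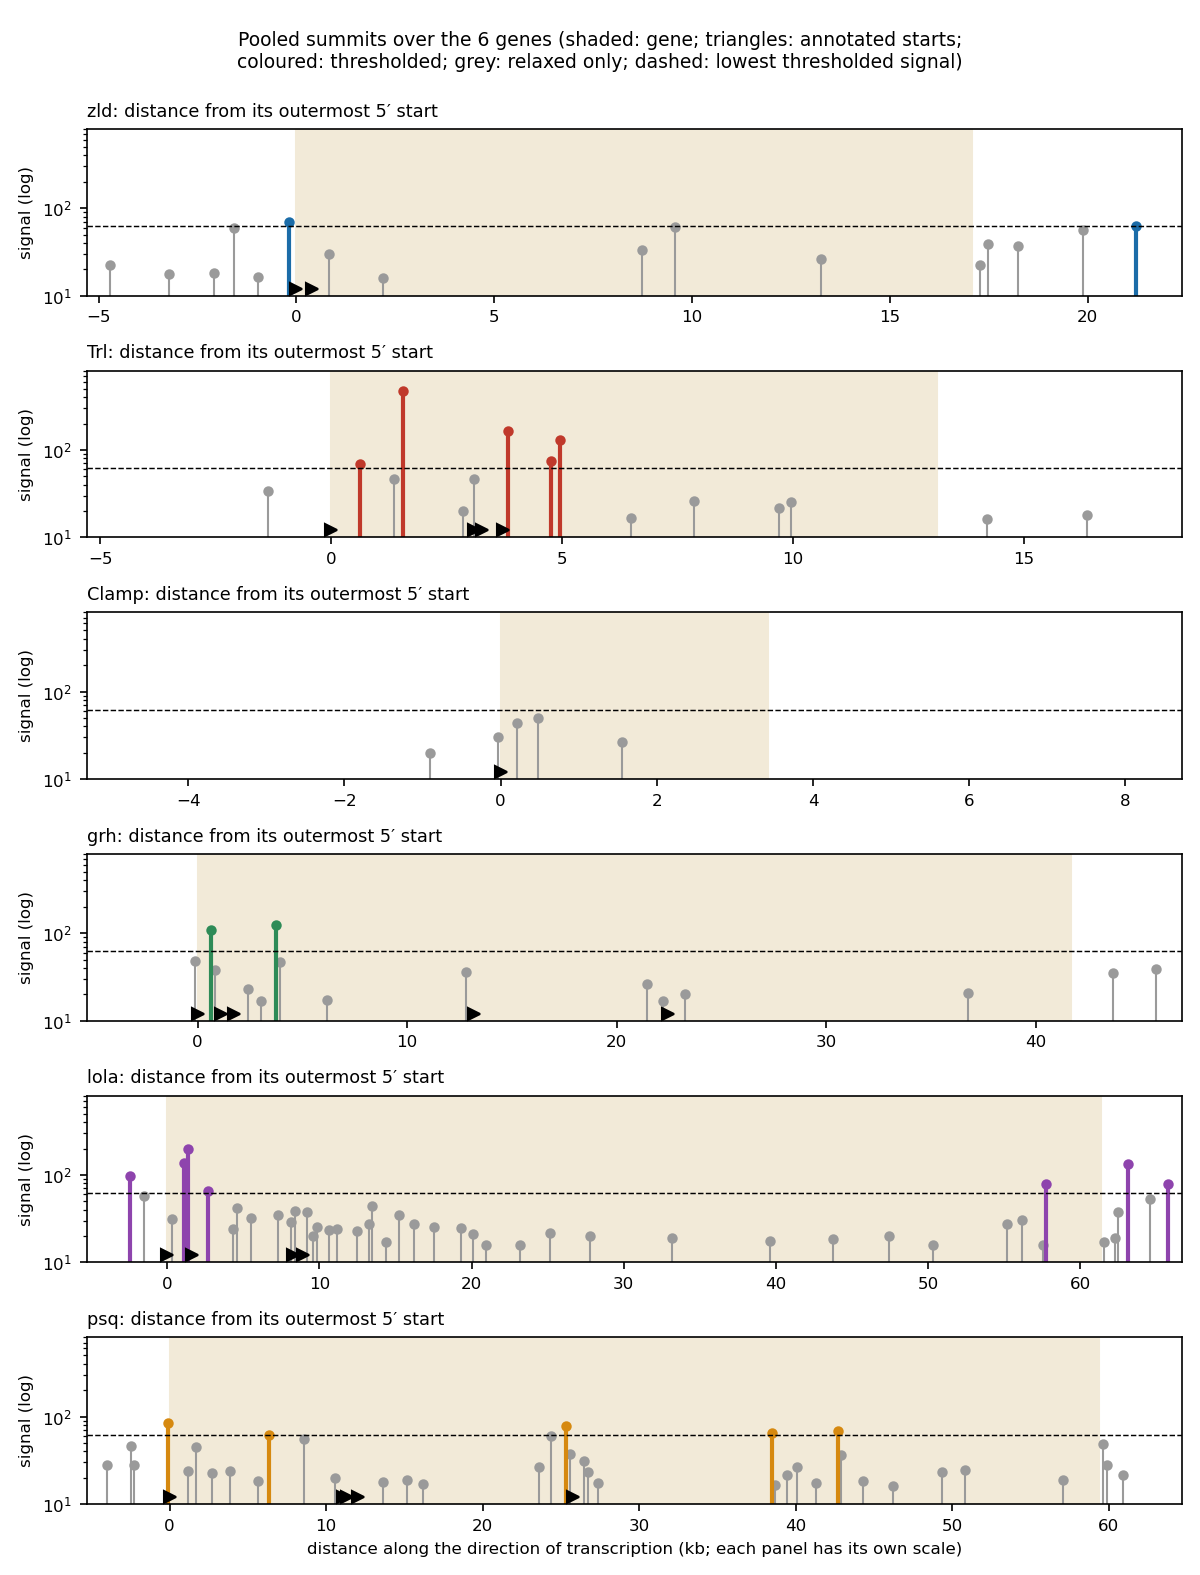
Pooled summits along the 6 genes, with the distance from the outermost start in the direction of transcription on the horizontal axis (kb) and the signal on a logarithmic vertical axis. Coloured stems are thresholded summits, grey stems are relaxed summits below the threshold, triangles are annotated starts and the dashed line is the lowest thresholded signal, 61.8. The tallest stem, at Trl, reaches 470, and no stem at Clamp reaches the line.

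zld itself had a summit just upstream of its outermost start, near the threshold. zld (FBgn0259789) lies on the X from 19766465 to 19783548 on the minus strand, with 5 transcripts from 2 starts. The summit at 19783732, with signal 70.3 and rank 2235, lay 184 bp upstream of the start that serves 4 of the transcripts. In replicate 2 the signal was 37.2 at rank 2676, and in replicate 3 it was 33 at rank 2175. The replicates thus placed it close to the rank at which the thresholded list ends. The other thresholded summit within 5 kb of zld, at 19762324 with signal 63.2, lay 6 bp from a start of CG12702, downstream of zld, with signals of 33 and 25.6 in replicates 2 and 3. Another 3 pooled summits stood just below the threshold, between ranks 2877 and 3500, of 5 such summits at the 6 genes. The strongest of them, at 19773969 in an intron of zld 9174 bp downstream of its inner start, had signal 60.3 and rank 3008, with rank 2422 in replicate 2 and 6147 in replicate 3. It is shown with the promoter summit because it had CAGGTAG near its summit and the promoter summit had not. Both windows are on the plus strand, at chrX:19783632-19783832 and chrX:19773869-19774069, with GAGAG and CAGGTAG (here on the other strand, as CTACCTG) in capitals.
zld upstream summit: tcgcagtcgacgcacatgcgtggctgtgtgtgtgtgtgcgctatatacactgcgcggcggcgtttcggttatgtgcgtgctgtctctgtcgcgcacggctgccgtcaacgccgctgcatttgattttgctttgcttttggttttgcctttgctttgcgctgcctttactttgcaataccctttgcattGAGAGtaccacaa
zld intronic summit: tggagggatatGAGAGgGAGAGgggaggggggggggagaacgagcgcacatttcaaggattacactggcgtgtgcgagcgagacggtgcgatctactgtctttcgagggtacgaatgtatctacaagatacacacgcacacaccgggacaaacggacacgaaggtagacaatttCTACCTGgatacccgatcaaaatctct
The centre of the CAGGTAG word lay 77 bp from the intronic summit, and the same window held GAGAG at 2 places near its edge.

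Trl held the strongest summit of the set, and it lay inside the gene, away from its starts. Trl (FBgn0013263) lies on arm 3L from 14747929 to 14761049 on the minus strand, with 10 transcripts from 4 starts, and encodes GAGA factor, which recruits nucleosome remodellers to GA repeats. Its strongest summit, at 14759498, had a signal of 470 and rank 28 in the pooled list. In replicate 2 the signal was 264 at rank 36, and in replicate 3 it was 206 at rank 17. This summit fell in an intron, 1536 bp upstream of the nearest inner start and 1551 bp downstream of the outermost start at 14761049. Its rank was high in both replicates, and no other summit of the 6 genes had a rank under 260 in the pooled list. The window of 100 bp to each side of it, chr3L:14759398-14759598, is shown as the strongest summit among the 6 genes, on the plus strand with the searched word it held, ACAGTGG, in capitals. The word stood at the very edge of this window. A window of the same length from chr3L:14755999-14756199, around the intronic summit with signal 130, is shown for comparison and held none of the words.
Trl intron, strongest summit: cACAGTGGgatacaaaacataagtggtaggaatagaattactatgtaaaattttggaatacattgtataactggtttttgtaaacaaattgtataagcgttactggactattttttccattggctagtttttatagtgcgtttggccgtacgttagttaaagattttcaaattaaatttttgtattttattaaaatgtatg
Trl intron, summit with signal 130: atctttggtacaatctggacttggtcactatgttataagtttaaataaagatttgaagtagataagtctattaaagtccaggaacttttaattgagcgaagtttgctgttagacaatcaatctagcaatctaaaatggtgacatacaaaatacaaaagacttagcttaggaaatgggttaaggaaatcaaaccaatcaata
G and C made up 27.9% of the first window and 30.8% of the other. The other thresholded windows of Trl held 33.3, 44.3 and 48.3%, and the 21 windows of the 6 genes had a median of 40.8%, against 37.3% over all thresholded windows. ACAGTGG lay at 2 of the 21 thresholded summits, against 8.8% of all thresholded windows, and it was chosen as a word from earlier results of these data.

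The other 4 thresholded summits of Trl lay around its inner starts and in its introns. The summit at 14757233, in a 5′ UTR 103 bp downstream of the start at 14757336, had signal 163 and rank 395, with signal 108 and rank 333 in replicate 2 and signal 57.3 and rank 620 in replicate 3. That start serves 1 of the 10 transcripts. The intronic summits at 14756099 and 14756300 had signals of 130 and 75.5 at ranks 663 and 1973. Replicate 2 had a summit for each, at ranks 846 and 1666, while replicate 3 had 1 summit between them, at rank 515, so they are not separate there. The summit at 14760426, in the intron 623 bp downstream of the outermost start, had signal 69.1 and rank 2319, with rank 1766 in replicate 2 and 3386 in replicate 3. The start region from 14757779 to 14757962, which serves 8 of the 10 transcripts, had no thresholded summit within 500 bp. A pooled summit 3 bp from it had signal 46 and rank 4648, and the replicates differed there, with rank 2080 in replicate 3 and rank 29743 in replicate 2. CG42507 overlaps Trl on the same strand and shares the start at 14757962, so binding at that start cannot be assigned to either gene.

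Clamp had no thresholded summit. Clamp (FBgn0032979), on arm 2L from 22165720 to 22169143 on the minus strand, encodes a zinc finger protein that helps to bring the MSL dosage compensation complex to the X. It had 5 pooled summits in the gene extended by 5 kb, of which 3 lay within 500 bp of its only start. Of all promoters of protein-coding genes, 53.8% had at least 1 pooled summit within 500 bp. Within 1 kb of a start, 62.9% of all protein-coding genes had one. The strongest, in an intron at 22168666, 477 bp downstream of the start, had signal 49.2 and rank 4174. Replicate 3 had this summit with signal 30.3 at rank 2636, inside its own 2876 strongest, and replicate 2 had none within 200 bp. The next, at 22168939 in the 5′ UTR, had signal 43.5, with signal 28.3 and rank 4252 in replicate 2 and signal 11.7 and rank 16488 in replicate 3. The strongest summit of Clamp thus lay at a different place in each replicate, in the intron in replicate 3 and in the 5′ UTR in replicate 2.

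grh had a thresholded summit in a 5′ UTR near an upstream start and another, stronger in the pooled list, in an intron. grh (FBgn0259211), on arm 2R from 17801132 to 17842820 on the plus strand, encodes Grainyhead, which governs epidermal barrier genes and late neuroblasts. The summit at 17804873, in an intron 2006 bp downstream of the nearest start, had signal 123 and rank 733, with signal 81.1 and rank 608 in replicate 2 and signal 43.4 and rank 1183 in replicate 3. The summit at 17801770, in a 5′ UTR 476 bp upstream of the start at 17802246, had signal 109 and rank 960, with signal 48 and rank 1732 in replicate 2 and signal 70.4 and rank 377 in replicate 3. Which of these was the stronger therefore differed between the replicates. Of the other 4 starts of grh none had a thresholded summit within 500 bp, and the relaxed summit 150 bp upstream of the outermost start, with signal 48.3, was the strongest beside them, at rank 4292.

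lola had the most thresholded summits in the extended gene, 7, in 2 groups near its ends. A start of lola was the nearest for only 4 of them, against 5 each for Trl and psq. lola (FBgn0283521), on arm 2R from 10481894 to 10543291 on the minus strand, encodes a large family of BTB zinc finger proteins that guide axons and share their upstream exons, and 24 transcripts start at 4 positions. At the upstream end the summit at 10541956 had signal 199 and rank 260, 286 bp upstream of the start at 10541670, which serves 8 transcripts. Its signal was 113 at rank 293 in replicate 2 and 82.3 at rank 265 in replicate 3, so the ranks were close to each other. A second summit 212 bp away had signal 136 and rank 595, with signal 88.4 and rank 502 in replicate 2 and signal 42.6 and rank 1248 in replicate 3. The summit at 10545735, between genes and 2444 bp upstream of the outermost start, had signal 97.2 and rank 1190, with ranks of 944 in replicate 2 and 2650 in replicate 3. The intronic summit at 10540581, 1089 bp downstream of the same start at 10541670, had signal 65.7 and rank 2567, and its ranks of 4846 in replicate 2 and 1369 in replicate 3 ran the other way. The start at 10535032, which serves 11 transcripts, had only relaxed summits within 500 bp. The one 125 bp downstream, with signal 38.9, was found in replicate 2 at rank 4250, and the one 95 bp upstream, with signal 28.6, in replicate 3 at rank 4246. Neither had a summit within 200 bp in the other replicate.

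At the downstream end of lola the thresholded summits stood nearer to other genes. The summit at 10480148, with signal 134 and rank 614, lay 15 bp upstream of a start of Pef, and it was the only thresholded summit of the 6 genes that held TATCGATA, which the promoter factor DREF binds. Its signal was 84.9 at rank 539 in replicate 2 and 43.5 at rank 1178 in replicate 3. The summit at 10477489 had signal 77.9, with rank 1471 in replicate 2 and 2509 in replicate 3, and lay 1078 bp downstream of the nearest start, that of whd. The summit at 10485504 had signal 77.7 and rank 1865, with rank 3506 in replicate 2 and 1165 in replicate 3, and lay inside lola 252 bp upstream of the start of pre-lola-G, a transcription unit annotated within the 3′ part of lola. It held TAGGTAG, a close relative of the Zelda site, which 1.63% of all thresholded windows held. The 45 pooled summits of lola, thresholded ones included, had a median signal of 27.2, and 9 of them fell in coding exons.

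psq had 5 thresholded summits spread over its length, at ranks from 1613 to 2841. psq (FBgn0263102) is the next of the 6 genes along arm 2R, 14.6 kb beyond lola, from 10557888 to 10617280 on the plus strand, and encodes Pipsqueak, a BTB protein that binds GAGA sites. The strongest, at 10557819, had signal 84.3 and rank 1613 and lay 69 bp upstream of the outermost start, with signal 40.1 and rank 2358 in replicate 2 and signal 43.9 and rank 1154 in replicate 3. The summit at 10583246 had signal 78.8 and rank 1818 and lay in an intron 440 bp upstream of the innermost start, with signal 45.1 and rank 1937 in replicate 2 and signal 33.4 and rank 2113 in replicate 3. Together these starts serve 11 of the 15 transcripts. The others, at 10600596, 10596387 and 10564233, lay in introns 16910, 12701 and 4709 bp from the nearest start of psq, with signals of 67.8, 64.6 and 62.2. These 3 summits ranked from 3133 to 3848 in replicate 2 and from 1825 to 4473 in replicate 3. The start region at 10568942 to 10569954 had no thresholded summit within 500 bp.

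The order of the 6 genes by their strongest summit was the same in the pooled list and in each replicate: Trl, lola, grh, psq, zld and Clamp. In replicate 2 the strongest summits ranked 36, 293, 608, 1506, 2251 and 4252 in that order, and in replicate 3 17, 265, 377, 1154, 2175 and 2636. Trl and lola used the same summits in both. The strongest summit of grh, psq, zld and Clamp lay at a different place in replicate 2 than in replicate 3, so their order rests on different sites. That of zld in replicate 2, at 19763550, lay in an intron of CG12702, 19593 bp from the nearest start of zld. The ranks of psq and zld, neighbours in this order, overlapped between replicates: at their strongest pooled summits zld ranked 2676 in replicate 2 and 2175 in replicate 3, and psq 2358 and 1154.

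All 21 thresholded summits had a relaxed summit within 200 bp in each replicate, as 99.1% of all thresholded summits did. Within the 2876 strongest peaks of a replicate stood 15 of the 21 in replicate 2 and 18 in replicate 3, with 14 inside this bound in each. Over all thresholded summits these shares were 86.3% in replicate 2, 78.8% in replicate 3 and 66.9% in each. The rank was better in replicate 2 for 10 and in replicate 3 for 11. In the other direction no share over all peaks is given. Replicate 2 had 20 of its 2876 strongest peaks at the 6 genes, of which 16 lay within 200 bp of a thresholded summit. Replicate 3 had 21, of which 17 did. Among the rest in replicate 2, the widest difference was in an intron of psq at 10582246, with rank 1506 in replicate 2 and 19800 in replicate 3. The pooled list placed it at rank 3000, with signal 60.4. Among the rest in replicate 3 were the Clamp summit and the Trl summit 3 bp from its inner start, both described above, and a summit beyond the 3′ end of zld, at 19766091, with rank 2334 and no match in replicate 2.

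**Figure D3:**
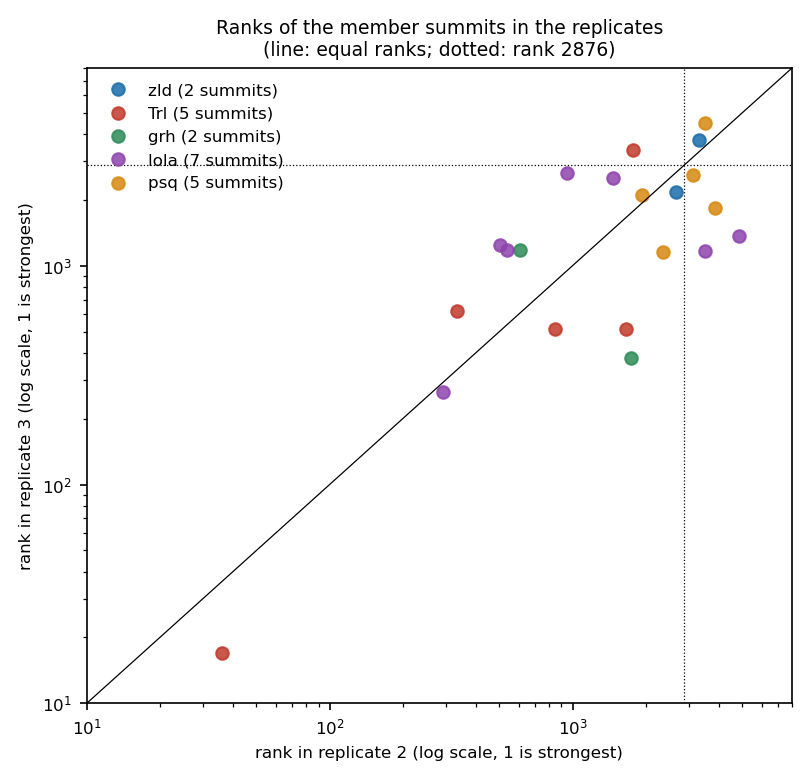
Rank of each of the 21 thresholded summits of the 6 genes in replicate 2 (horizontal axis) and replicate 3 (vertical axis), both logarithmic, with rank 1 the strongest. The line marks equal ranks and the dotted lines rank 2876. The strongest summit of Trl stands alone at ranks 36 and 17, and 14 of 21 points lie inside both dotted lines.

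Alternative promoters of the same gene differed. Starts within 200 bp of each other were taken as 1 promoter, which gave 20 promoters for 64 transcripts. A thresholded summit lay within 500 bp of 6 of them, where 15.3% of all promoters of protein-coding genes had one, and a pooled summit within 500 bp of 16, where 53.8% had one. zld, Trl, grh and lola each had 1 such promoter with a thresholded summit, and psq had 2. At Trl and grh that promoter served 1 transcript, of 10 and of 8, while at zld it served 4 of 5. These assignments rest on the bound of 500 bp. The grh summit lay 476 bp from the start credited with it. The Trl summit lay a little more than 500 bp from the start region that serves 8 of the 10 transcripts. No pooled summit lay within 500 bp of the outermost start of Trl, of the grh start at 17802867, or of the psq starts at 10569222 and 10569954.

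**Figure D4:**
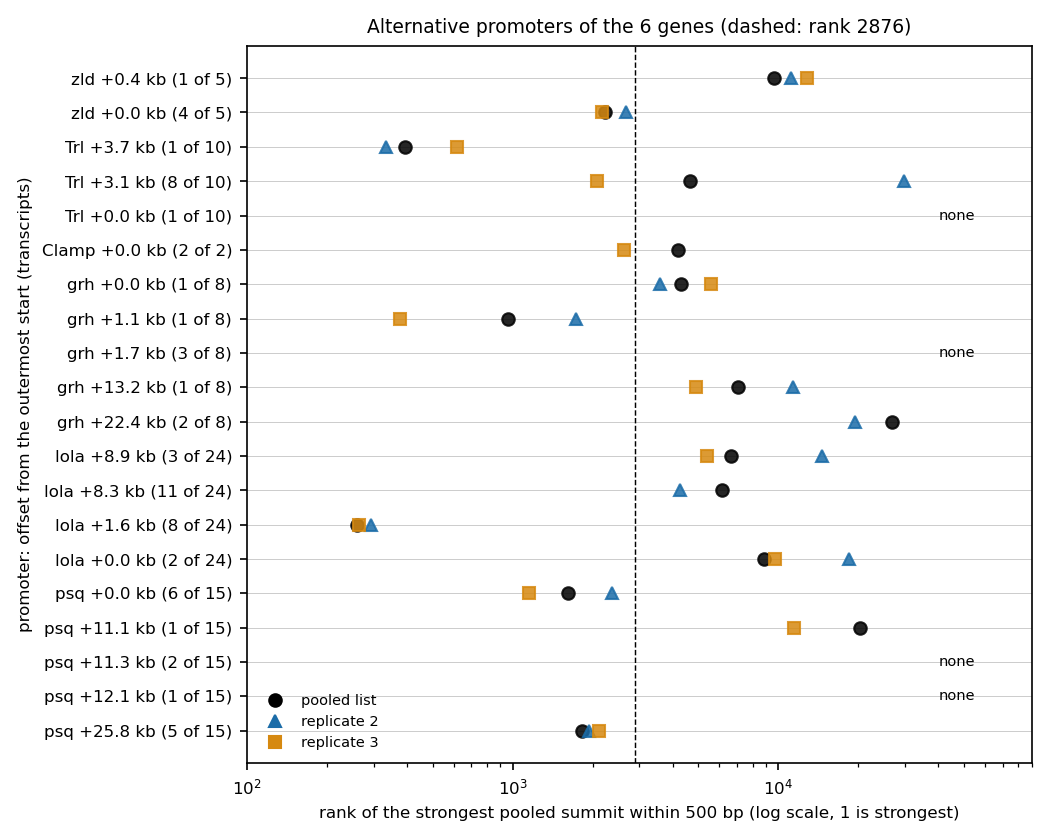
Rank of the strongest pooled summit within 500 bp of each of the 20 promoters (horizontal axis, logarithmic, rank 1 the strongest), in the pooled list and at the matching summit of each replicate. Each row gives the offset of the promoter from the outermost start of the gene and its share of the transcripts. The dashed line is rank 2876; 6 promoters have a pooled point to its left, and 4 have no summit.

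Short words were counted, reading each strand, in windows of 100 bp to each side of a summit. CAGGTAG lay at 1 of 21 thresholded summits, the one at 10583246 upstream of the innermost start of psq, which held 2 copies; 2.02% of all thresholded windows held it (95% Wilson interval 1.56 to 2.6%). GAGAG, the core of the sites of GAGA factor, Pipsqueak and Clamp, lay at 7 of 21, against 23.6% of all thresholded windows (interval 22.1 to 25.2%). It was repeated most at the psq intron summit at 10596387, where the 5 letters matched at 7 places, and at the grh summit at 17801770, where they matched at 5; overlapping matches are counted. Of the 5 thresholded summits of Trl, 0 held it. The Grainyhead site AACCGGTT lay at 0 of 21, against 0.313% of all thresholded windows. GGTCACAC, bound by M1BP at core promoters, also lay at 0, against 3.58%. TATCGATA lay at 1, against 6.68%, and the shorter ATCGATA that it contains at 2, against 13.2%. The words CAGGTAA, another relative of the Zelda site, and AGTGTTG lay at 0 and 1, against 2.12% and 9.91%. No test was made of these counts.

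CAGGTAG was also present elsewhere in the extended genes. The word occurred 18 times, 7 times at psq, 3 times each at zld, Trl and grh, 2 times at lola and 0 times at Clamp. Among pooled summits 5 of 133 held it, against 1.98% of all pooled windows. A pooled summit lay within 100 bp of 6 of the 18, and a thresholded one within 100 bp of 2, both at the psq summit at 10583246. Over the chromosome arms 8.38% of 7804 copies had a pooled summit within 100 bp, and 64 of them had a thresholded one. But pooled and thresholded summits were also denser at the 6 genes, as given above. At grh 2 copies lay 22 and 80 bp from relaxed summits with signals of 37.8 and 36.1, upstream of 2 of its starts. At psq a pair of copies at 10596241 and 10596253 lay 146 and 134 bp from the thresholded summit at 10596387, just outside the window.

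Genes of related factors were read in the same way, as a description. Of 7 genes listed as chromatin partners of GAGA factor, 4 had a thresholded summit within 1 kb of a start. These were dre4 with signal 77.2, E(bx) with 70.5, Iswi with 63.3 and corto with 62.3. Nurf-38, Caf1-55 and Ssrp had relaxed summits of 41.5, 28.5 and 37.3. Of 11 genes for other BTB proteins related to Lola and Pipsqueak, only lolal, whose product interacts with GAGA factor, had one, with signal 94.8; ab and bab2 had relaxed summits of 27.5 and 23.6 and bab1 had none within 1 kb. The strongest among the rest of these BTB genes, named after their values were seen, were mod(mdg4) with 59.2, just below the threshold, fru with 49.8 and ttk with 48.3. Of 5 MSL complex genes only msl-1 had one, with signal 66.4, while msl-2, msl-3 and mle had 24.9, 31.2 and 33.9. Of 8 genes for other factors of early zygotic transcription 4 had one: nej, which encodes the CBP acetyltransferase, with signal 145, bcd with 89.2, fs(1)h with 82.1 and Stat92E with 80.7. The pioneer factor gene opa, smg and Cdk9 had 34.2, 58.6 and 31.6. gem, which encodes a relative of Grainyhead, had one with signal 62.5. In all 11 of the 32 genes had one, to be read against the 19.7% of all protein-coding genes.

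By the signals of their strongest thresholded summit in the 2 replicates, the genes most like Trl among 5643 genes were CG31145, with 282 and 195 in replicates 2 and 3, and CG5611, with 255 and 190, against 264 and 206 for Trl. The nearest to lola were CG14851 and CG14854, which have a summit in common, with 114 and 82.7 against 113 and 82.3. lace and CG31957 were nearest to grh, CG14022 and Ncoa6 to psq, and CG17658 and CG5339 to zld, each within 0.034 on the log2 scale as a Euclidean distance over the replicates. The psq pair and the zld pair each have a summit in common as well, so each counts as 1 site.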

How the data were processed

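The authors deposited narrowPeak lists on the dm3 and dm6 builds; the dm3 lists were not used here. The accompanying deposited text files say that relaxed lists were made for each replicate and for both together against a control, and the thresholded list was derived from those 3 for reproducibility. The aligner, peak caller, versions and cut are nowhere named in the sources used here. Per the labels, chromatin was sonicated to a size range of 200 to 800. Values are the authors' deposited signal per peak and their −log10 q value, which stood at its ceiling of 3.94 in all 2876 thresholded peaks and was not used further. Neither was rescaled.

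Summits were counted from 1 as column 2 plus column 10 plus 1. Gene models were those of Ensembl release 115 on BDGP6.54 for protein-coding genes of the assembled chromosome arms, and sequence that of the NCBI Release 6 assembly; both have dm6 coordinates, and all 6 symbols matched. Windows are 201 bases. Of the shares, those of CAGGTAG and GAGAG over all thresholded windows are given with 95% Wilson intervals, which cover counting error only. The other shares are given without one. Genes named besides the 6 were taken by fixed rules: the genes of the nearest starts, up to 4 with and 3 without a summit from each of 5 lists, and the 2 most like each gene. The 6 genes and the lists were chosen with earlier results of these data known, and 5 of the 10 words and the merging of summits were added after seeing the data. Counting was tested on simulated summits. Calculations used Python 3.11.15 with numpy 2.4.6, pandas 2.3.3, scipy 1.17.1 and matplotlib 3.10.9. Sequence of arm 2R is not shown.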

Additional observations from a re-analysis of the deposited data

How the results depend on the processing

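No paired analysis was possible because there was 1 group and no contrast. With the stronger 1438 thresholded peaks alone, 3 of the 6 genes (Trl, grh and lola) kept a summit within 1 kb of a start, the 21 summits came down to 9, and 4 lay within 500 bp of a start. Within 250 bp of a start there were 3 summits in place of 7. In the replicates taken alone the number of genes was 5 (replicate 2) and 6 (replicate 3, with Clamp), and the number of summits 20 and 21. At the strongest thresholded summit of each gene, the rank was read in each replicate. It ran from 2175 to 2676 for zld, from 17 to 36 for Trl and from 608 to 1183 for grh. For lola it ran from 265 to 293 and for psq from 1154 to 2358. The replicates are themselves the spread here, so these ranks say nothing of stability. In windows of 200 bp to each side CAGGTAG lay at 3 thresholded summits and GAGAG at 13. In windows of 50 bp GAGAG lay at 4 and ACAGTGG, in place of 2, at 1. A longer window holds at least as many matches at any summit, and no share of all thresholded windows is given at these lengths. With no extension of the genes 15 summits remained, and merging summits within 500 bp, chosen after seeing the data, gave 19. Of the alternatives computed for counts, 37 stayed within 1.5 times, and 8, all given here, did not. The 37 include words at 0 or 1 summits and a wider match distance that could only keep all 21. Such counts had little or no room to move, so the tally is no measure of stability. Read depth is unknown and limits what a missing summit can show.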
